A study of Mus musculus with 6 samples.

Results

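Granzymes and other genes of cytotoxic lymphocytes were followed here: Gzma, Gzmb, Gzmk, Prf1, Nkg7, Ctsw and Eomes. They were taken by symbol and make up 7 of the 27998 genes listed in the deposited single-cell matrices. The cells came from C57/B6 mice that received porcine pancreatic elastase (PPE) to induce an abdominal aortic aneurysm (AAA) at 8 to 12 weeks of age, and tissue was taken on day 14. CD4+ T cells were sorted from the spleen (3 libraries) and from vascular tissue (3 libraries) and sequenced with a 10x Genomics 5′ kit. All 6 libraries share strain and elastase treatment, and no untreated aorta was analysed here. Whole aorta was minced and enzyme-digested (37 °C, 1 h) to free the vascular cells, and spleens were only ground, so tissue and dissociation cannot be told apart. The labels number the libraries 1 to 3 in each tissue and do not say whether they are separate animals, so the p-values measure the spread between libraries, which may be technical.

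Granzymes are serine proteases that cytotoxic lymphocytes store in granules and release onto a target cell, where perforin, the product of Prf1, opens the membrane for them. Nkg7 is a granule membrane protein that takes part in degranulation, Ctsw is a cathepsin made mainly by cytotoxic T cells and natural killer (NK) cells, and Eomes is a T-box transcription factor of cytotoxic and memory lymphocytes. CD4+ T cells can carry this program too, regulatory T cells among them, which can use granzyme B.

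The genes lie on 6 chromosomes in GRCm38 (mm10), the build named for these files, and the coordinates below are of whole gene spans from GENCODE annotation of that build. Gzma (chr13:113093825-113100981) and Gzmk (chr13:113171608-113225908) are neighbours on the minus strand, 70.6 kb apart. Gzmb lies at chr14:56258838-56262260 on the minus strand, Ctsw at chr19:5465043-5468507 on the minus strand, Prf1 at chr10:61297833-61304680 on the plus strand, Nkg7 at chr7:43437073-43438249 on the plus strand and Eomes at chr9:118478212-118486132 on the plus strand. Promoters from RefSeq (GRCm38.p6) were found for 6 of the 7 members, and starts are those of RefSeq. For Gzmk, Nkg7 and, by a few bases, Prf1 the RefSeq start lies inside the GENCODE span, and for Gzmb and Eomes outside it. The 250 bases before the start are printed for the members whose levels differ most in pattern below, each in the direction of transcription, with matches to GGTGTG (the core of the T-box motif, bound by factors such as Eomes and T-bet) and to TGTGGT (the core of the Runx motif) in capitals on either strand. The coordinates are chr7:43436888-43437137 (plus strand) for Nkg7, chr13:113180966-113181215 (minus) for Gzmk, chr13:113100982-113101231 (minus) for Gzma and chr14:56262335-56262584 (minus) for Gzmb.
Nkg7: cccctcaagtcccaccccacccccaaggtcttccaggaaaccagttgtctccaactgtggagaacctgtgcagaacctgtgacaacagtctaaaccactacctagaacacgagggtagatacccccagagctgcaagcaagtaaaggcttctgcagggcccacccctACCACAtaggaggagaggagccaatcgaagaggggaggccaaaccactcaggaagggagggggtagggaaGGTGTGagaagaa
Gzmk: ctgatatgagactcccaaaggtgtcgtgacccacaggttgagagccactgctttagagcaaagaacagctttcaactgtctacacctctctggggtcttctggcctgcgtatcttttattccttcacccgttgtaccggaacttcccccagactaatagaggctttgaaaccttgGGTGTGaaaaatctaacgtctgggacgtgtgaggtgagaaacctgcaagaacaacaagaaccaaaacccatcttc
Gzma: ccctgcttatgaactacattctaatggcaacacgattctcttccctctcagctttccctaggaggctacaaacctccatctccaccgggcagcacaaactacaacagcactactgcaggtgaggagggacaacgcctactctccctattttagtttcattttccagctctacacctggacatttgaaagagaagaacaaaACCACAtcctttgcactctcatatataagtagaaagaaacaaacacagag
Gzmb: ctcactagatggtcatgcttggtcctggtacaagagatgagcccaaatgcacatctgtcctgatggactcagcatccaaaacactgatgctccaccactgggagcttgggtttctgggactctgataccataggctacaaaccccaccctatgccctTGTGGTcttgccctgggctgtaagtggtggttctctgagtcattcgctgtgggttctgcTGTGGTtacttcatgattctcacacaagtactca

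The neighbouring genes Gzma and Gzmk hold different motifs in this window. The T-box core stood 13 bases before the RefSeq start of Nkg7 and 75 bases before that of Gzmk, and the longer T-box letters AGGTGTGA, which contain it, were found in the Nkg7 promoter only. The core sites of both genes lie inside their GENCODE spans. Runx letters stood 50 bases before the start of Gzma, 83 before that of Nkg7, 130 before that of Prf1, and 93 and 34 bases before that of Gzmb, which also held the AP-1 letters TGANTCA 58 bases before its start. Among 32851 promoter windows of the same length from 27025 genes, GGTGTG occurred in 16.3%, AGGTGTGA in 1.12%, TGTGGT in 14.0% and TGANTCA in 6.75%, so most of these matches are common ones. A match is only a description of the letters, and Ctsw had no entry.

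The libraries held 41315 barcodes and 240821626 unique molecular identifiers (UMIs, 1 per captured RNA molecule), from 14836442 to 55483411 UMIs per library, with medians of 4423 to 5724 per barcode. After removal of 2607 likely doublets, 38696 cells remained, of which 90.1 to 95.8% per library held Cd3e, a T cell receptor subunit, and 53.2 to 64.4% held Cd4. Cd8b1 was found in 7.61 to 10.2% of cells and Ncr1, which marks NK cells, in 0.042 to 0.148%, while Cd8a was found in 0.565 to 0.662% of spleen and 2.45 to 3.93% of vascular cells and Siglech, a plasmacytoid dendritic cell gene, in 0.667 to 1.15% and 5.98 to 8.44%. All values below are for cells with at least 1 Cd3e UMI (2130 to 8472 per library), and gates such as "Foxp3+" mean at least 1 UMI of that gene. Levels are given as CPM, a gene's UMIs scaled to all UMIs in the sum over the cells of a library, so that more cells of a type and more RNA per cell cannot be told apart. Cell barcodes shared by library pairs were 0.766 to 1.69% of the smaller library.

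In all T cells together, the vascular libraries carried more Ctsw, Nkg7, Gzmb and Gzmk and less Prf1 and Eomes than the spleen libraries, and Gzma did not pass the test. Of the 7 members, 4 were higher, 2 lower and 1 did not pass the test (edgeR's quasi-likelihood test, Benjamini-Hochberg adjusted p below 0.05). Of all 12233 genes tested, 22.5% were higher and 18.1% lower. The cathepsin gene Ctsw stood at 50.3, 42.8 and 45.3 CPM in the spleen libraries and at 354, 299.8 and 168 CPM in the vascular ones. The lowest vascular library thus stood well above every spleen library, and the fitted difference was 2.55 on the log2 scale (SE 0.24, adjusted p = 0.000117 by edgeR). Nkg7 stood at 117, 122 and 137 CPM in spleen and at 566, 389 and 224 CPM in vascular tissue, a log2 difference of 1.63 (SE 0.28, adjusted p = 0.00227 by edgeR). For both genes the 3 vascular libraries kept the same order and spread widely, while the spleen libraries lay close together.

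The granzymes themselves differed in how they behaved. Gzmb, the granzyme best known for triggering caspase-dependent death, stood at 56.9, 29.9 and 44.2 CPM in spleen and at 175, 84.4 and 93.8 CPM in vascular tissue, a log2 difference of 1.43 (SE 0.30, adjusted p = 0.00529 by edgeR). Gzmk, a granzyme of memory T cells, stood at 17.8, 14.1 and 24.0 CPM in spleen and at 66.0, 39.8 and 32.1 CPM in vascular tissue, a log2 difference of 1.28 (SE 0.28, adjusted p = 0.00627 by edgeR). For neither gene did the tissues overlap. Gzma, a tryptase, stood at 17.8, 7.88 and 33.4 CPM in spleen and at 29.5, 15.2 and 13.1 CPM in vascular tissue. The tissues overlapped throughout, and the log2 difference was -0.05 (SE 0.47, adjusted p = 0.946 by edgeR), with a value of 0.64 when spleen library 3 was left out.

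Prf1 and Eomes went the other way. Prf1 stood at 11.2, 11.2 and 12.5 CPM in spleen and at 5.73, 5.10 and 7.95 CPM in vascular tissue, a log2 difference of -0.92 (SE 0.16, adjusted p = 0.00242 by edgeR). Eomes stood at 8.29, 7.25 and 10.3 CPM in spleen and at 3.89, 2.86 and 4.92 CPM in vascular tissue, a log2 difference of -1.16 (SE 0.20, adjusted p = 0.00241 by edgeR). The tissues did not overlap for 6 of the 7 members, the exception being Gzma, where 53.5% of all genes tested showed no overlap. The calls for the other 6 members held under each of the alternatives run for all T cells.

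**Figure D1:**
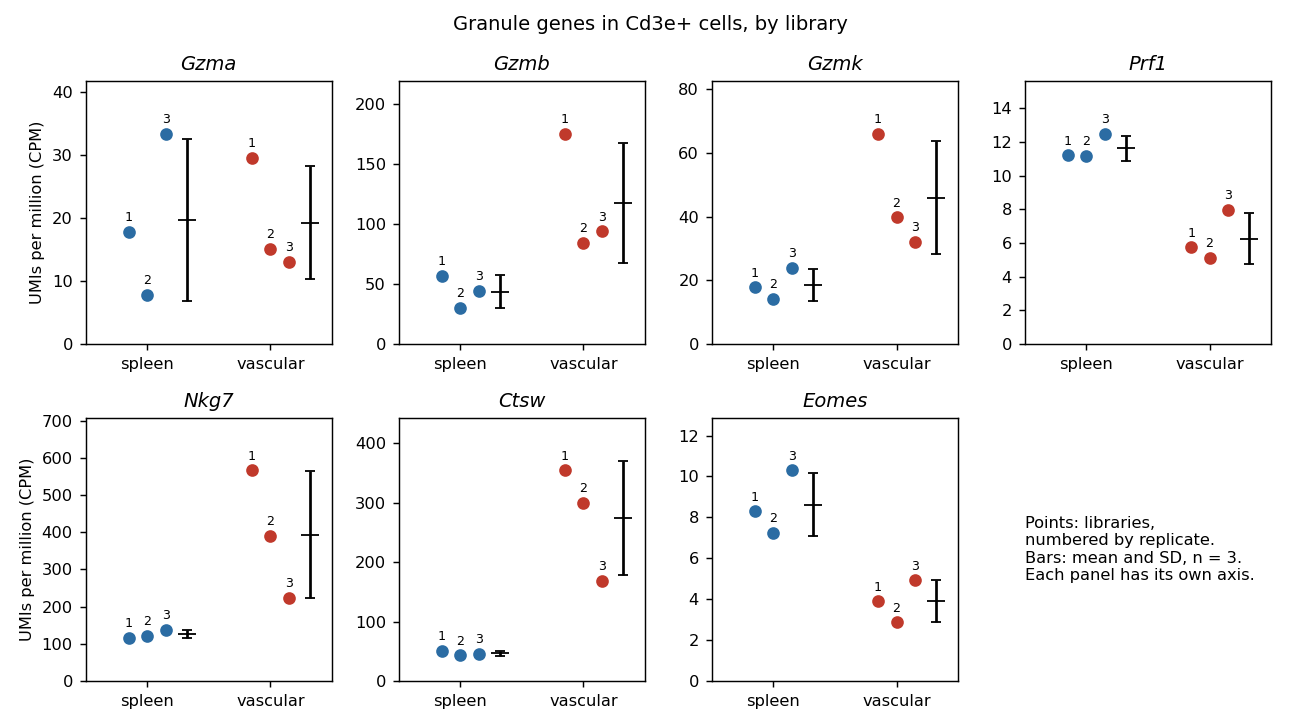
Levels of the 7 genes in Cd3e+ cells, in CPM on a linear axis from 0 that differs between panels; each numbered point is a library, and the bar beside them is the mean and SD of 3 libraries. Vascular points lie above the spleen points for Gzmb, Gzmk, Nkg7 and Ctsw, below them for Prf1 and Eomes, and among them for Gzma.

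The share of cells with a UMI, with every cell thinned to 1000 UMIs so that depth is equal, went the same way. Spleen T cells held Ctsw in 3.84% ± 0.0761 and vascular T cells in 21.4% ± 7.38 (SD, n = 3 each), and Nkg7 in 6.73% ± 0.138 and 24.9% ± 9.99. Gzmb was found in 1.60% ± 0.356 and 5.25% ± 1.90, and Gzmk in 1.11% ± 0.184 and 3.96% ± 1.40. Prf1 was seen in 1.14% ± 0.132 and 0.705% ± 0.140, and Eomes in 0.544% ± 0.106 and 0.329% ± 0.107, so both were rare in either tissue. For these 6 genes the libraries did not overlap and the exact two-sided permutation test gave p = 0.1, the smallest that 3 against 3 allows, or 0.247 after adjustment over 42 tests. Gzma was seen in 0.483% ± 0.142 and 0.823% ± 0.446 (exact permutation p = 0.3, adjusted 0.434). Without thinning, 11.6 to 13.5% of spleen cells and 28.7 to 59.0% of vascular cells held Nkg7, and Prf1 in 5.75 to 6.62% and 2.49 to 4.18%. As a measure of free RNA, vascular cells with plasmacytoid dendritic markers and no Cd3e, which are deeper (median 8083 to 8453 UMIs), showed Ctsw in 2.54%, Gzmb in 0.303%, Nkg7 and Gzmk in 0.115% each and no Eomes, Prf1 or Gzma at the same thinned depth. In spleen such cells were few: Ctsw was in 2 of 19, 0 of 83 and 0 of 51 and Nkg7 in 0 of 19, 0 of 83 and 1 of 51. As 0 of 83 allows a share of up to 3.61%, these cells set no close bound on free RNA for the spleen share of Ctsw. In deeper cells free RNA may be a smaller part of the 1000 UMIs drawn, so these shares may understate it for T cells. Shares in less deep cells with B cell markers and no Cd3e (median 3247 to 4009 UMIs) are not given here.

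Other genes of the granule pathway were counted from lists chosen for their function, in the same comparison of all T cells, where the median log2 difference of all genes tested was 0.01. Inhibitors that protect a cell from its own granzymes were higher for 3 of 3 tested (of 4 listed, median 1.66), with Serpinb9, the granzyme B inhibitor, at 3.17, Serpinb6b at 1.66 and Serpinb6a at 1.09. Of 13 genes for loading and releasing granules, 7 were higher, 0 lower and 6 did not pass (median 0.27), led by the fusion protein gene Stx11 at 1.54, Lyst at 0.88 and the granule proteoglycan gene Srgn at 0.86. Death ligands were higher for 3 of 4 (median 1.49), namely Tnf at 2.06, Fasl at 1.99 and Tnfsf10 at 1.00. Only 2 of 7 other granzymes could be tested: Gzmc was higher at 2.25 and Gzmm had -0.57 without passing. Of 10 transcriptional regulators, 8 were higher, led by Bhlhe40 at 2.98, Zeb2 at 2.23 and Prdm1 at 1.99, with Tbx21, which encodes T-bet, at 1.77. The 2 that were lower are tied to naive and helper states, Tcf7 at -1.09 and Zbtb7b at -0.91. Bcl6, which is tied to follicular helper T cells, was among the 8 that were higher. Of 11 receptors, adaptors and chemokines, 9 were higher and 1 lower, led by Klrk1 (the receptor NKG2D) at 2.70, Ccl4 at 2.24 and Ccl3 at 2.09, while Crtam, a receptor of CD4+ cytotoxic cells, was lower at -0.94. Summed NK or innate lymphoid markers moved with these genes, at 36.1 to 51.7 CPM in spleen and 96.5 to 143 CPM in vascular T cells over 7 listed genes, with Klra4, Klra8, Klra9 or Ncr1 at 0 in one or more libraries, and their part in the result was not tested.

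The gates separated the members into different patterns within each library. Foxp3+ cells (207 to 811 per spleen and 442 to 582 per vascular library), Foxp3 being the defining factor of regulatory T cells, carried the most Gzmb on average in both tissues among the gates with at least 20 cells in a library. Gzmb stood at 322, 133 and 192 CPM in Foxp3+ spleen cells and at 543, 220 and 332 CPM in Foxp3+ vascular cells, against 2.65, 2.40 and 2.24 CPM in spleen and 61.4, 13.8 and 14.7 CPM in vascular T cells without any of the 5 gate genes. Against Foxp3- cells of the same library, Gzmb was higher by 2.95 in spleen (SE 0.19, adjusted p = 8.67e-08) and by 2.0 in vascular tissue (SE 0.17, adjusted p = 6.17e-07 by edgeR) on the log2 scale. Although Foxp3+ had the highest mean, its libraries overlapped those of the Ifng+ cells in spleen and of the Klrb1c+ cells in vascular tissue, the next in order. Spleen cells that held both Ifng and Cxcr6 and no Foxp3, Zbtb16 or Klrb1c stood higher still, at 433 ± 91.4 CPM of Gzmb (SD, n = 3, from 331 to 507) against 215 ± 96.7 in Foxp3+ spleen cells, and the libraries did not overlap. In vascular tissue the same cells stood at 153 ± 12.7 CPM, below the 365 ± 164 of Foxp3+ cells. Gate-positive cells were compared with gate-negative cells without thinning, and a cell with few UMIs can miss its gate.

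The other members did not follow Gzmb into Foxp3+ cells. In spleen 1 member was higher and 4 lower, where 17.0% of 11241 genes were higher and 14.8% lower, and in vascular tissue 1 was higher and 5 lower, where 23.0% and 23.8% of genes were. Gzmk was at 5.41 to 9.63 CPM in Foxp3+ spleen cells and at 9.48 to 16.5 CPM in Foxp3+ vascular cells, and was lower than in Foxp3- cells by log2 differences of -1.78 and -2.24 (adjusted p = 8.7e-07 and 4.1e-09 by edgeR). Prf1 was lower by -1.78 and -1.22 and Eomes by -1.37 and -1.97, so the Foxp3+ cells held much Gzmb and little Prf1. Nkg7 was lower in vascular Foxp3+ cells (-1.59) but did not pass in spleen (-0.31, adjusted p = 0.0612 by edgeR), and Ctsw was lower in both (-0.77 and -1.81). Gzma did not pass in either tissue.

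Ifng+ cells, which make the cytokine interferon gamma, and Cxcr6+ cells, which carry a chemokine receptor of tissue T cells, were rich in Nkg7, Ctsw, Gzmb and Gzmk. Ifng+ cells numbered 197 to 632 per spleen and 1068 to 2736 per vascular library, and Cxcr6+ cells 139 to 620 and 2018 to 4204. Nkg7 stood at 551, 696 and 725 CPM in Ifng+ spleen cells and at 804, 712 and 626 CPM in Ifng+ vascular cells, against 34.3 to 45.6 and 59.5 to 266 CPM outside all gates. Gzmk was highest on average in Ifng+ cells of both tissues, at 53.2, 73.3 and 95.1 CPM in spleen and 84.9, 58.9 and 73.2 CPM in vascular tissue, overlapping, among sums of at least 20 cells, only with the Cxcr6+ cells that came next. Against Ifng- cells, 5 members were higher and 0 lower in each tissue. Of 11577 genes, 15.1% were higher and 15.2% lower in spleen, and 7.91% and 8.98% in vascular tissue. In spleen the 5 log2 differences were 2.91 for Gzma, 2.83 for Gzmb, 2.39 for Gzmk, 3.03 for Nkg7 and 1.98 for Ctsw, and in vascular tissue 1.05, 0.69, 1.03, 1.55 and 1.21. Prf1 (-0.28 and -0.23) and Eomes (-0.54 and 0.14) did not pass in either. In vascular tissue the Gzma and Gzmb calls did not pass under DESeq2 (adjusted p = 0.204 and 0.0794) or with a Cd4 UMI required, the Gzma call was lost without vascular library 3 and the Gzmb call without vascular library 2.

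The Cxcr6 gate gave 5 members higher and 1 lower in spleen, where 15.7% of 11596 genes were higher and 16.2% lower, and 4 higher and 2 lower in vascular tissue, where 11.5% and 12.6% of genes were. Nkg7 was higher by 3.23 and 1.62 and Ctsw by 2.66 and 1.55 in spleen and vascular tissue. Gzmb was higher by 2.63 and 1.09 and Gzmk by 1.63 and 0.70. Eomes was lower in Cxcr6+ cells of both tissues, by -1.09 and -1.59 (adjusted p = 0.0442 and 0.00448 by edgeR), and Prf1 was lower in vascular tissue (-0.94, adjusted p = 0.00859 by edgeR) and did not pass in spleen (0.09). The difference between the tissues for Prf1 was -1.03 (adjusted p = 0.073 by edgeR). Calls near the threshold were lost without single libraries: Eomes in spleen without vascular library 2 or either of spleen libraries 1 and 2, Gzmb in vascular tissue without vascular library 2, Gzmk without vascular library 2 or 3, and Prf1 without vascular library 3.

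Zbtb16+ cells (32, 77 and 71 per spleen library) and Klrb1c+ cells (64, 183 and 172) carry genes of innate-like and NKT cells, and in spleen they held the most Ctsw. Ctsw stood at 456, 432 and 479 CPM in Zbtb16+ and at 358, 326 and 299 CPM in Klrb1c+ spleen cells, above the 191 to 262 CPM of Cxcr6+ cells, and no library of one gate overlapped the next. Against Zbtb16- cells, 3 members were higher and 1 lower, where 4.88% of 10208 genes were higher and 5.81% lower. Ctsw was higher by 3.26 (SE 0.10, adjusted p = 3.7e-18) and Nkg7 by 2.77 (SE 0.09, adjusted p = 1.02e-17 by edgeR). These cells were almost without Gzmk, at 0, 6.33 and 2.37 CPM (-2.60, adjusted p = 0.0021 by edgeR), and held more Prf1, at 26.3, 33.7 and 30.8 CPM (1.22, adjusted p = 0.00944). The calls for Gzmk and Prf1 were lost with a Cd4 UMI required (-1.43 and 0.64), the first also without spleen library 3 and the second without spleen library 2. No vascular library held 20 Zbtb16+ cells (18, 5 and 12), so the tissues were not compared.

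Against Klrb1c- cells, 3 members were higher and 1 lower in spleen, where 6.53% of 11144 genes were higher and 7.55% lower, and 3 were higher and 0 lower in vascular tissue, where 0.61% and 1.55% of genes were. Nkg7 was higher by 2.36 in spleen and 0.78 in vascular tissue, and Ctsw by 2.82 and 0.94, but the vascular calls were lost with a Cd4 UMI required (0.36 and 0.52). Gzmk was lower in spleen by -1.99 (adjusted p = 3.71e-06 by edgeR) and did not pass in vascular tissue (-0.58). Gzma was higher by 2.49 and 4.79, calls that did not pass under DESeq2 (adjusted p = 0.810 and 0.599), and the vascular value was 2.88 without vascular library 1 and 5.68 without vascular library 3, each with 1 vascular library left. In spleen it was 1.90 without library 3. Vascular Klrb1c+ cells were few (29, 19 and 42, the second library being left out), and 34.5 to 45.2% of them held an NK or innate lymphoid marker, against 8.74 to 12.8% in spleen. The summed level of the 7 markers was 464 to 926 CPM in vascular and 70.6 to 97.9 CPM in spleen Klrb1c+ cells, with Klra4 at 0 in every vascular library, and their part in these differences was not tested.

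**Figure D2:**
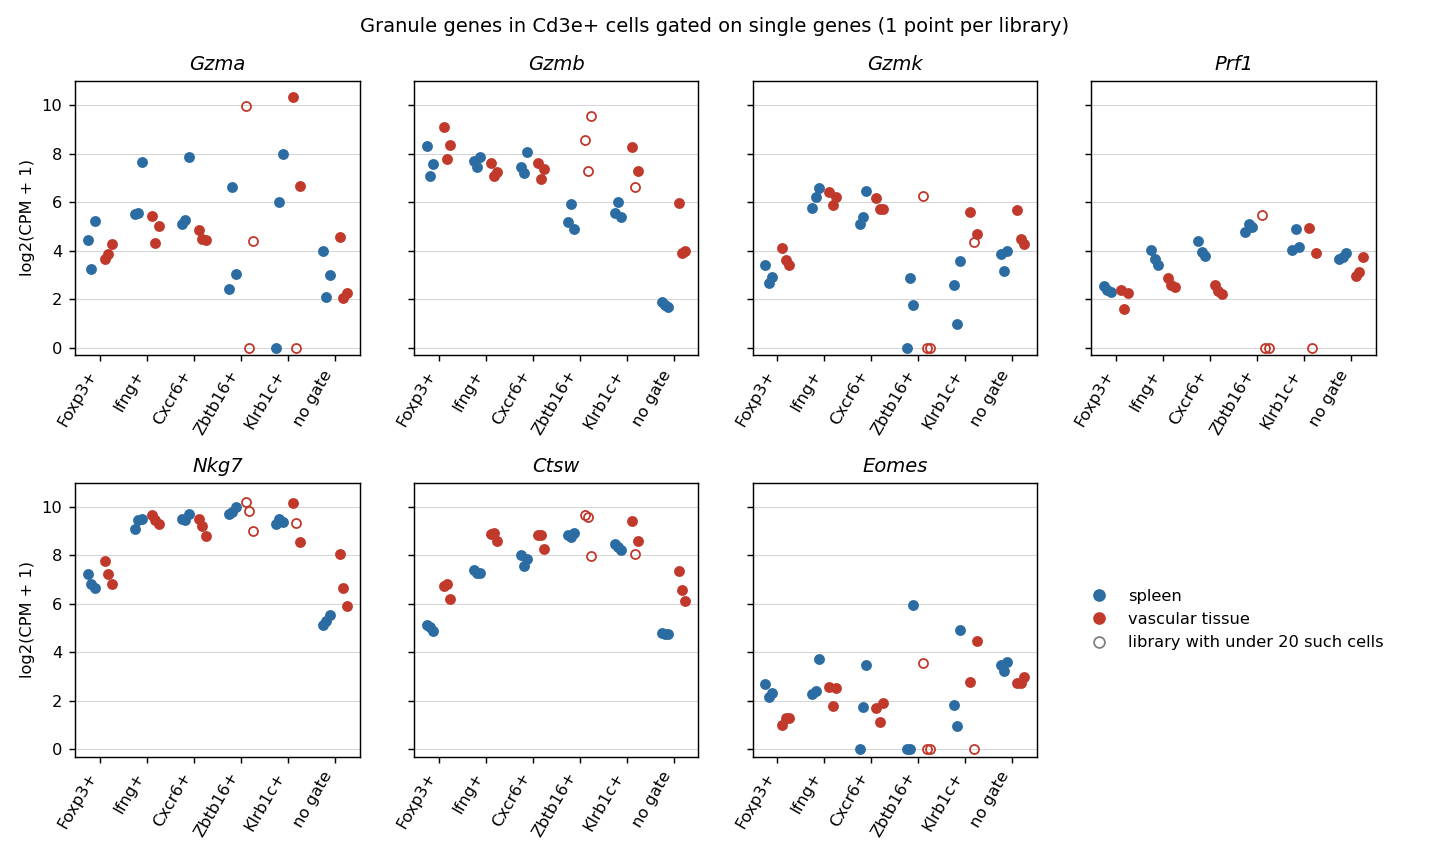
Levels of the 7 genes by gate, as log2(CPM + 1); each point is the sum over the gated cells of a library, spleen in blue and vascular tissue in red, with open points for libraries with under 20 such cells. Among the filled points, Gzmb is highest on average in Foxp3+ cells and Gzmk in Ifng+ cells, and Nkg7 and Ctsw are lowest in Foxp3+ cells and cells of no gate.

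**Figure D3:**
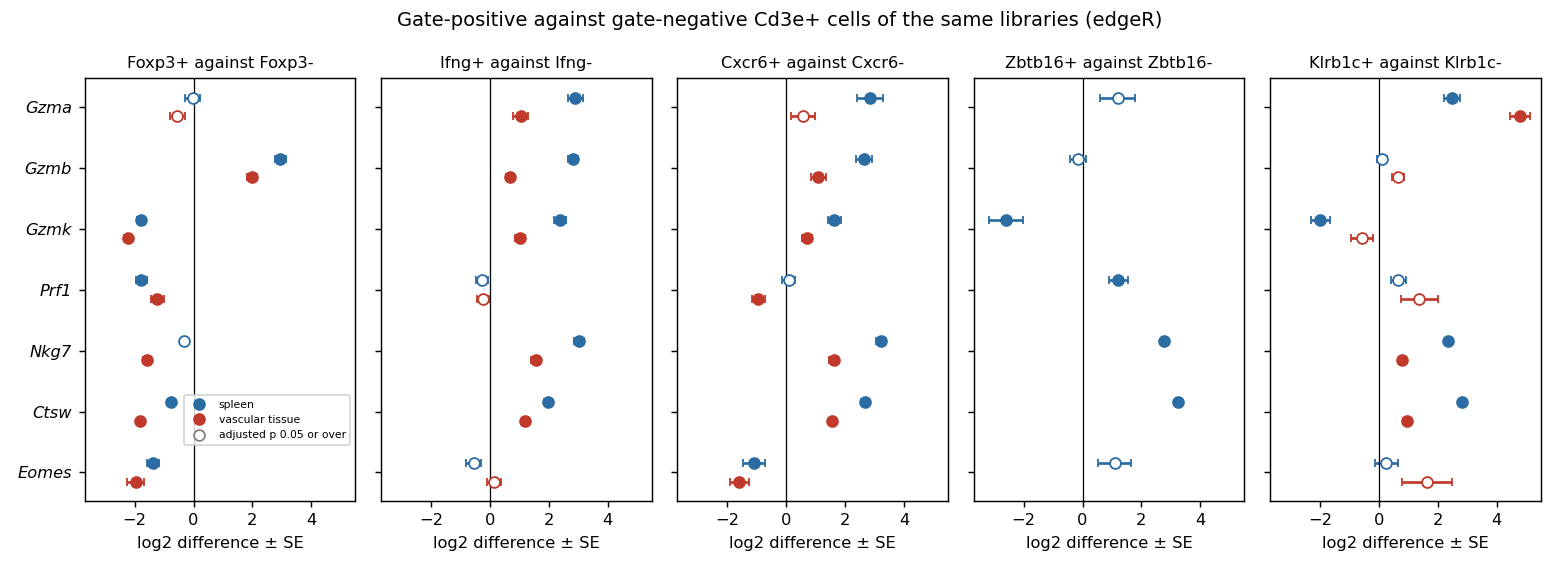
Fitted log2 difference between gate-positive and gate-negative cells of the same libraries, with its SE, for each gene and gate in spleen (blue) and vascular tissue (red); open points did not pass the test. In the Ifng and Cxcr6 panels the vascular differences of Gzma, Gzmb, Gzmk, Nkg7 and Ctsw lie nearer to 0 than the spleen ones, and in the Foxp3 panel Gzmb alone lies above 0 with a filled point.

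Within single gates fewer members passed between tissues than over all T cells. Zbtb16+ cells were too few to test, and Ctsw passed in each of the other gates except Klrb1c+. It was higher in vascular tissue by 1.60 in Foxp3+ cells (adjusted p = 0.000156), 1.67 in Ifng+ cells (3.29e-06), 1.02 in Cxcr6+ cells (0.002) and 2.03 in cells of no gate (0.001 by edgeR). In Ifng+ cells it stood at 169, 152 and 156 CPM in spleen and at 474, 491 and 391 CPM in vascular tissue, and the tissues did not overlap. Of the 7 members, 2 were higher and 1 lower in Foxp3+ cells, where 15.1% of 10086 genes were higher and 10.4% lower. In Ifng+ cells 1 was higher and 2 lower (15.5% and 12.7% of 10122 genes), in Cxcr6+ cells 1 and 2 (15.7% and 12.9% of 10670), and in cells of no gate 4 and 1 (15.6% and 11.2% of 10834).

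Nkg7, Gzmb and Gzmk did not pass between tissues within the Ifng or Cxcr6 gates. The log2 differences in Ifng+ cells were 0.27 for Nkg7, -0.20 for Gzmb and 0.09 for Gzmk (adjusted p = 0.146, 0.343 and 0.77 by edgeR), and in Cxcr6+ cells -0.21, -0.14 and 0.17 (0.383, 0.657 and 0.70). Outside all gates the same genes were higher in vascular tissue, Gzmb by 3.63 (SE 0.57, adjusted p = 0.00225), Nkg7 by 1.84 (SE 0.44, 0.0152) and Gzmk by 1.32 (SE 0.37, 0.0276 by edgeR). Vascular library 1 was the highest there for each, with 61.4 CPM of Gzmb against 13.8 and 14.7 in the other vascular libraries, and without it the differences were 2.61 for Gzmb and 1.04 for Nkg7, both still passing. In Foxp3+ cells Gzmb had a log2 difference of 0.78 that did not pass (adjusted p = 0.119 by edgeR), although its thinned share went from 7.06% ± 2.26 to 14.7% ± 4.15 without overlap (exact permutation p = 0.1, adjusted 0.247). Gzmk in Foxp3+ cells passed narrowly (0.86, adjusted p = 0.0477 by edgeR) and was lost under DESeq2 (0.83), with a Cd4 UMI required (0.33), and without spleen library 2, spleen library 3, vascular library 1 or vascular library 2. The call for Gzmk outside the gates was lost without spleen library 1 or 2 (adjusted p = 0.0525 and 0.0909 by edgeR) and with a Cd4 UMI required.

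Prf1 was lower in vascular tissue in the Ifng and Cxcr6 gates too. In Cxcr6+ cells it stood at 19.9, 14.5 and 12.7 CPM in spleen and at 5.06, 4.10 and 3.64 CPM in vascular tissue, a log2 difference of -1.61 (SE 0.22, adjusted p = 0.000536 by edgeR). The thinned share of Cxcr6+ cells with Prf1 went from 2.40% ± 1.09 to 0.428% ± 0.0485 (exact permutation p = 0.1, adjusted 0.247). In Ifng+ cells Prf1 was lower by -0.93 (adjusted p = 0.0101), which was lost with a Cd4 UMI required (-0.45), and in Foxp3+ cells and cells of no gate it did not pass (-0.33 and -0.46). Eomes was lower in Foxp3+ cells (-1.64, adjusted p = 0.00786) and in cells of no gate (-0.67, adjusted p = 0.0139 by edgeR), the latter lost without spleen library 3 or vascular library 2. Gzma was called lower in vascular Ifng+ cells (-1.54, adjusted p = 0.0392) and Cxcr6+ cells (-2.06, adjusted p = 0.0244 by edgeR), but spleen library 3 stood at 200 and 235 CPM there against 33.7 to 46.2 CPM in the other spleen libraries, and without it the values were -0.40 and -0.46 and neither passed. Both Gzma calls were also lost without any 1 of the vascular libraries and under DESeq2.

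In Klrb1c+ cells 1 of 5 members tested was higher and 0 lower, where 2.78% of 4992 genes were higher and 0.381% lower. Gzmb stood at 45.4, 62.9 and 40.5 CPM in spleen and at 311 and 154 CPM in vascular libraries 1 and 3, a log2 difference of 2.22 (SE 0.31, adjusted p = 0.00128 by edgeR) that did not pass with a Cd4 UMI required (0.59). Gzmk and Eomes were too low there to be tested.

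The gate differences themselves were tested between the tissues. Cxcr6+ cells were 48.6% of vascular and 6.89% of spleen T cells, and Ifng+ cells 29.0% and 8.14%. Cells that missed a gate count as gate-negative, and their part in these differences was not tested. In this contrast lower means a negative value of vascular minus spleen, whatever the sign of the gate difference in each tissue. For the Ifng gate 5 of 7 members were lower in vascular tissue and 0 higher, where 6.43% of 11577 genes were lower and 4.91% higher. The 5 members were Gzmb at -2.15, Gzma at -1.85, Nkg7 at -1.47, Gzmk at -1.37 and Ctsw at -0.77. Of these, the Gzma call was lost without spleen library 3 and the Ctsw call without spleen library 2 or 3, and the Gzma, Gzmk and Ctsw calls did not pass under DESeq2. For the Cxcr6 gate 4 of 7 were lower and 0 higher (5.67% and 2.72% of genes), with Gzma at -2.26, Nkg7 at -1.61, Gzmb at -1.54 and Ctsw at -1.12. The Gzma and Gzmb calls were lost under DESeq2 and without spleen library 2 or 3, and that for Gzma also without vascular library 1 or 2. For the Foxp3 gate 3 of 7 were lower in vascular tissue and 0 higher (5.32% and 2.91% of genes), with Nkg7 at -1.28, Ctsw at -1.04 and Gzmb at -0.96, the last lost under DESeq2 and without spleen library 1, vascular library 1 or vascular library 2. For the Klrb1c gate, Nkg7 (-1.58) and Ctsw (-1.88) were lower and Gzma (2.30) higher, where 2.23% of genes were lower and 1.55% higher. Outside all gates Gzmb, Nkg7, Gzmk and Ctsw were higher in vascular tissue, as given above.

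The cells that held each member's UMIs were then counted in both tissues. Foxp3+ cells were 9.58% ± 0.448 of spleen and 9.49% ± 1.36 of vascular T cells (SD, n = 3). Cxcr6+ cells were 6.89% ± 0.399 and 48.6% ± 11.2, and Ifng+ cells 8.14% ± 0.974 and 29.0% ± 9.31 (gates can share cells). In spleen, 52.5% ± 14.2 of Gzmb UMIs lay in Foxp3+ cells and 40.4% ± 13.8 in Cxcr6+ cells. In vascular tissue 41.9% ± 9.69 lay in Foxp3+ cells and 69.7% ± 7.77 in Cxcr6+ cells. Only 4.48% of Gzmb UMIs in spleen and 7.14% in vascular tissue came from cells of no gate. Gzmk had 39.1% in Ifng+ cells, 24.3% in Cxcr6+ cells, 4.43% in Foxp3+ cells and 48.9% in cells of no gate in spleen, and 47.0%, 64.0%, 3.78% and 21.1% in vascular tissue. Prf1 and Eomes were spread over the rest: cells of no gate held 81.95% and 86.7% of their UMIs in spleen, close to the 78.8% that those cells made up. In vascular tissue, where cells of no gate were 37.5% ± 12.5 of T cells, they held 50.5% of Prf1 and 55.2% of Eomes UMIs. Cells with Zbtb16 or Klrb1c and no Foxp3 were 2.81% of spleen and 0.685% of vascular T cells. They held 21.9% of the Ctsw UMIs in spleen and 1.45% in vascular tissue, at levels of 360 ± 23.3 and 468 ± 196 CPM.

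Sorting every T cell into the first of 6 classes that it met (Foxp3+, Zbtb16+ or Klrb1c+, Ifng+ Cxcr6+, Ifng+ only, Cxcr6+ only, none) allowed the level in each class to be set against the share of the classes. Per 1000 T cells there were 271 Ctsw UMIs in spleen and 1448 in vascular tissue. Spleen levels weighted by vascular class shares gave 687, and vascular levels weighted by spleen shares gave 735. For Gzmb the values were 259 in spleen and 631 in vascular tissue, with 1019 for spleen levels at vascular shares and 451 for the reverse, and for Nkg7 they were 734, 2073, 2945 and 1029. For Gzmk they were 108, 247, 323 and 162, and for Gzma 112, 104, 393 and 109. For Gzmb, Nkg7, Gzmk and Gzma, spleen levels at vascular shares thus lay above what was measured in vascular tissue, and for Ctsw below it. The Gzma value leans on spleen library 3, which held 423 Gzma UMIs in 293 Cxcr6+ only cells. Spleen libraries 1 and 2 held 3 in 38 and 16 in 231 such cells. For Prf1 the values were 68.3, 32.2, 82.1 and 42.2, and for Eomes 50.6, 20.6, 35.2 and 28.4. Spleen levels at vascular shares lay above the vascular value for both of these too. These figures are means over 3 libraries and carry no test.

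**Figure D4:**
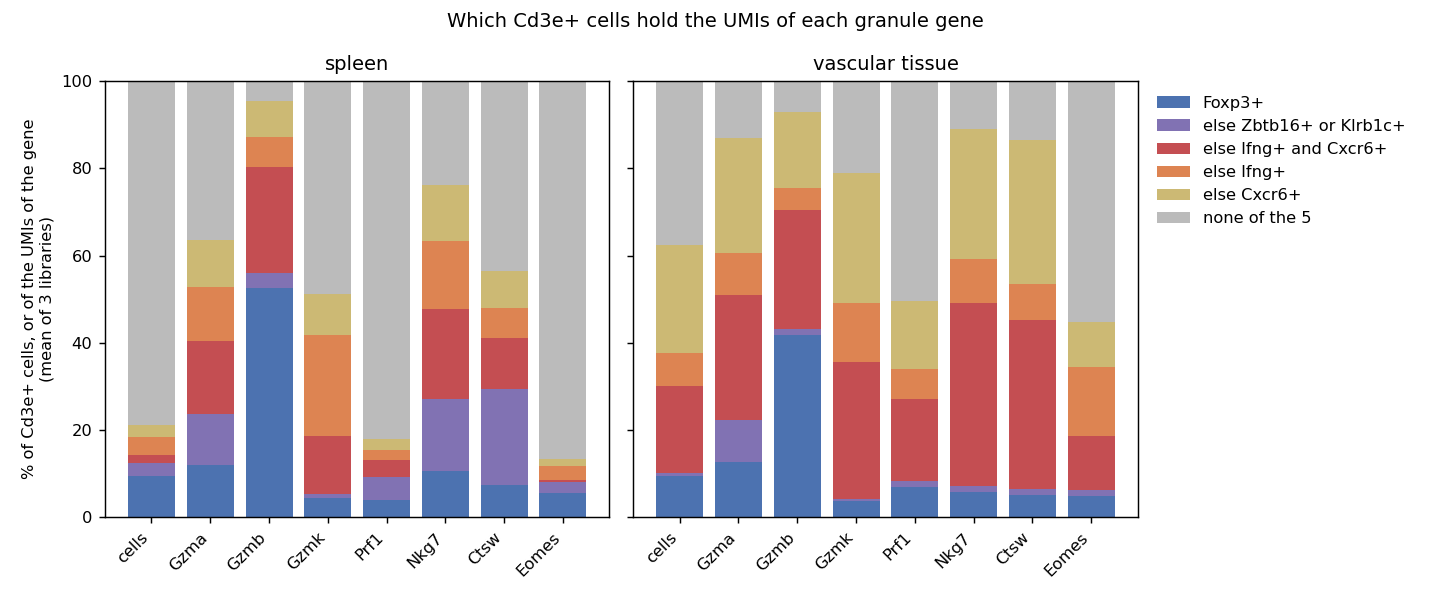
Stacked bars of the share of T cells (first bar) and of each gene's UMIs, in percent, from 6 classes that share no cells, as the mean of 3 libraries per tissue. In spleen the bars of Prf1 and Eomes look most like that of the cells, whereas Foxp3+ cells give the largest part of the Gzmb bar in both tissues.

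Gzma came from very few cells. It was found in 42 to 147 spleen and 97 to 245 vascular T cells per library, and 3 to 12 cells of a library held 50% of its UMIs. The highest cell held 73, 47 and 135 UMIs in the spleen libraries and 94, 62 and 41 in the vascular ones, and the top 10 cells held 47.3 to 84.5% of all Gzma UMIs. In the Zbtb16+ spleen cells Gzma came from 1 cell per library, with 1, 47 and 3 UMIs. In Klrb1c+ cells it came from 0, 2 and 9 cells in spleen (0, 65 and 257 UMIs) and from 6 and 5 cells in vascular libraries 1 and 3 (223 and 29 UMIs), which is 1307 and 102 CPM. Without vascular library 1 the difference between tissues in the Klrb1c gate was 0.41 and did not pass, against 2.30 with it, but vascular library 3 was then the only vascular library left, and it is assumed to vary like the spleen libraries. Prf1 showed the opposite form, with a mean of 1.07 to 1.12 UMIs per positive cell and at most 5 in a cell. Eomes in Zbtb16+ spleen cells was 26 UMIs of 1 cell in library 3 and 0 in the other spleen libraries.

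Most Gzmk+ cells held no Gzmb UMI: the share that did was 24.6% ± 1.41 for spleen and 22.2% ± 1.47 for vascular tissue (SD, n = 3), against 2.48% and 9.78% of cells without Gzmk. Cells with 1 of the 2 granzymes were compared within each library: Gzmk-only cells (56 to 216 per spleen and 311 to 840 per vascular library) and Gzmb-only cells (58 to 198 and 354 to 820). Eomes went with Gzmk. It stood at 47.3, 36.0 and 64.3 CPM in Gzmk-only spleen cells against 6.62, 1.44 and 9.83 in Gzmb-only ones, and at 24.0, 14.1 and 31.1 against 0.220, 1.30 and 1.84 CPM in vascular tissue. Every Gzmk-only library lay above every Gzmb-only library of its tissue, with log2 differences of 3.13 in spleen (SE 0.34, adjusted p = 1.39e-05) and 4.61 in vascular tissue (SE 0.38, adjusted p = 5e-07 by edgeR). Of the 5 members not used to choose the cells, 1 was higher and 1 lower in spleen, where 3.34% of 8909 genes were higher and 4.4% lower, and 3 were higher and 1 lower in vascular tissue, where 4.32% and 6.11% of genes were. Gzma went with Gzmb instead, lower in Gzmk-only cells by -2.82 in spleen (adjusted p = 1.26e-06) and -1.24 in vascular tissue (adjusted p = 0.00172 by edgeR, 0.302 by DESeq2). In vascular tissue Gzmk-only cells held more Nkg7 (955, 823 and 697 against 771, 653 and 452 CPM, 0.46, adjusted p = 0.00918) and Ctsw (481, 469 and 340 against 333, 359 and 187 CPM, 0.63, adjusted p = 0.00207 by edgeR). Prf1 did not pass in either tissue (-0.73 and 0.22). Between the tissues, the difference was higher in vascular tissue for 3 of the 5 and lower for 0 (Gzma 1.58, Nkg7 0.80 and Ctsw 1.17), where 0.606% of genes were higher and 0.314% lower, and none of the 3 held without spleen library 3 or without vascular library 1.

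Foxp3+ cells made up part of the Gzmb-only set, so the comparison was repeated among cells without a Foxp3 UMI, a choice made after seeing the data. Eomes was then higher in Gzmk-only cells by 4.20 in spleen and 4.17 in vascular tissue, and Gzma lower by -3.81 and -1.70, all passing. Nkg7 and Ctsw no longer passed in vascular tissue (-0.09 and 0.14) and were lower in Gzmk-only cells of the spleen (-0.88 and -1.29, adjusted p = 4.42e-05 and 5.18e-05 by edgeR). The Nkg7 call in vascular tissue was also lost without vascular library 3 (0.34).

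Among other genes at 50 CPM or more in a set, those with the largest differences in vascular tissue, passing the test, were the following. Higher in Gzmk-only cells were Tcf7, the transcription factor TCF1 of naive and memory cells (143 ± 45.6 against 46.7 ± 5.42 CPM, 1.61), Slamf6, a receptor of memory and stem-like T cells (1.06), Sh2d1a, the adaptor of that receptor (0.90), and Bag3, a heat shock co-chaperone (0.98). St3gal6 (0.97), Abcb1b (0.93) and Ehd3 (0.92) were also higher. Jchain, an antibody-joining gene of plasma cells and plasmacytoid dendritic cells, was higher by 7.45, at 491 ± 845 CPM (SD, n = 3) against 2.04 ± 1.09, with an SD above its mean. Lower in Gzmk-only cells were Foxp3 (-3.61), Il2ra, the interleukin-2 receptor chain CD25 (-3.19), Klrg1, a receptor of late effector and tissue regulatory T cells (17.7 ± 11.5 against 214 ± 7.50 CPM, -3.56), and Areg, the growth factor amphiregulin (102 ± 48.4 against 623 ± 69.1 CPM, -2.58). Tnfrsf9, the costimulatory receptor 4-1BB (-3.26), Cxcl2, a neutrophil chemokine (-2.27), and Rln3 (-4.05) were lower too. So was Ppp1r3fos (-3.85), which lies beside Foxp3, and reads of such neighbours may be hard to part. Among cells without Foxp3, Klrg1 (-3.05), Tnfrsf9 (-2.72), Il2ra (-2.30) and Areg (-2.43) were still lower and Tcf7 (1.10), Slamf6 (0.99) and Sh2d1a (0.74) higher in vascular tissue. St3gal6 (0.39), Abcb1b (0.57) and Ehd3 (0.39) had smaller differences there than with Foxp3+ cells included, and still passed. In spleen, Tcf7 (2.33), Slamf6 (1.23), Sh2d1a (1.15) and Ehd3 (1.43) were higher and Klrg1 (-6.18), Areg (-5.35) and Il2ra (-3.71) lower as well. Jchain was higher in Gzmk-only spleen cells too (5.31), at 760 ± 728 against 21.6 ± 30.5 CPM. Bag3 (0.66), St3gal6 (0.65) and Abcb1b (0.52) did not pass in spleen. The names follow a rule, the 8 largest differences each way.

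**Figure D5:**
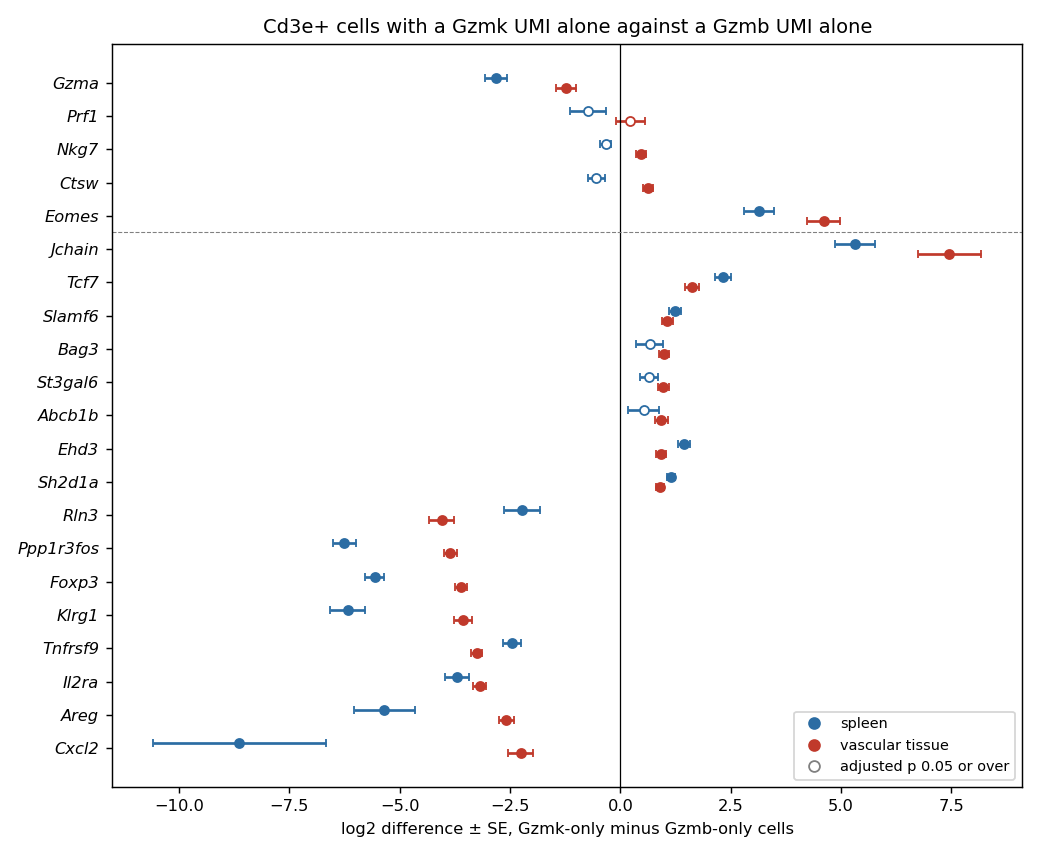
Fitted log2 difference between Gzmk-only and Gzmb-only cells of the same libraries, with its SE, in spleen (blue) and vascular tissue (red), for 5 members above the dashed line and 16 other named genes below it; open points did not pass the test. Eomes lies to the right of 0 and Gzma to the left of 0 in both tissues.

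In single cells at full depth, Nkg7 accompanied both granzymes: it was held by 76.9% ± 2.36 of the Gzmk+ cells of spleen and 85.2% ± 3.93 of those of vascular tissue, and by 68.5% ± 2.61 and 72.4% ± 9.36 of the Gzmb+ cells (SD, n = 3). Among cells without Gzmk the shares were 10.2% and 40.0%. Eomes+ cells held Gzmk in 18.4% ± 3.87 (spleen) and 52.5% ± 21.4 (vascular), against 2.88% and 10.5% of cells without Eomes. The reverse share was small, since only 12.0% ± 2.53 and 5.71% ± 2.40 of Gzmk+ cells held Eomes. Gzmb+ cells held Foxp3 in 36.5% ± 4.37 and 25.4% ± 9.41, while Gzmk+ cells did so in 5.89% ± 4.43 and 3.76% ± 0.718. Prf1+ cells held Gzmb on average somewhat more often than other cells, in 4.87% ± 0.945 and 18.2% ± 11.4, against 3.08% and 10.9% of cells without Prf1. They held Nkg7 in 16.1% ± 3.84 and 48.7% ± 25.2, against 12.1% and 44.6%. Shares of Prf1+ cells with Gzma or Gzmk are not given here. These shares rise with a cell's depth, and none carries a test. With cells thinned to 1000 UMIs, 87.4 to 88.4% of spleen and 47.0 to 72.9% of vascular T cells held none of the 7 members.

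The genes whose level was most like each member's across 36 sums (6 classes in each of 6 libraries, Pearson's r of log2(CPM + 1) over 7034 or 7035 genes at 10 CPM or more) are a description, since the sums share libraries. Nkg7 was most like the chemokine gene Ccl5 (r = 0.979) and Tbx21 (0.971), then Sntb2 (0.930), Mettl7a1 (0.924) and Serpinb6b (0.920). Ctsw was most like Il12rb2, the interleukin-12 receptor chain of Th1 cells (0.974), then Klrc1, Itga1, Klrk1 and Fasl (0.960 to 0.942). Among the genes most like Gzmb were Il12rb1 (0.887), Entpd1, the ectoenzyme CD39 (0.880), Maf (0.863) and Acot7 (0.857), and Gzmk was most like Gm44160 (0.908), Cd4 (0.872), Il2 (0.814), Casp1 (0.813) and Itgb1 (0.811). Gzma (r up to 0.740), Prf1 (up to 0.781) and Eomes (up to 0.663) had no gene as close as these. Between members, Nkg7 and Ctsw had r = 0.829, and Gzmb and Eomes r = -0.440.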

How the data were processed

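Per the submitters' processing notes, reads were handled with FastQC 0.11.8, STAR 2.5.1b, Cell Ranger 2.2.0 and Seurat on mm10. The deposited values are raw UMI counts per gene and barcode; how barcodes had been selected is not stated. Barcodes with under 300 genes or over 10% mitochondrial UMIs were dropped. Likely doublets were called by similarity to simulated ones, at a rate of 0.8% per 1000 barcodes, and removed. Cells with at least 1 Cd3e UMI were gated on Foxp3, Ifng, Cxcr6, Zbtb16 and Klrb1c (at least 1 UMI), and counts were summed per library and gate where at least 20 cells were present. Sums were compared over all genes passing filterByExpr with edgeR 4.0.16 (TMM, quasi-likelihood test, two-sided, Benjamini-Hochberg, threshold 0.05). Gate-positive and gate-negative sums were fitted with the library as a block, giving contrasts for each tissue and their difference, and DESeq2 1.42.0 was an alternative.

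The members and gene lists were chosen with earlier results of these data known. The genes named between Gzmk-only and Gzmb-only cells are the 8 largest called differences each way in vascular tissue at 50 CPM or more. For shares of cells with a UMI, cells were thinned to 1000 UMIs and compared with exact permutation tests. Libraries of a tissue differed by more than counting noise (chi-square per degree of freedom 13.6 to 44.1), so none was merged. On data simulated with the real mean levels and library sizes, the test of all T cells recovered 88.5% of 200 genes changed 2-fold, with 10 false calls among 187. Of those changed 4-fold it recovered 96.5%, with 8 false calls among 201, and 0 went in the wrong direction. For the Foxp3 gate in vascular tissue 76.5% and 95.0% were recovered. Every simulated gene had the same fixed spread, not taken from the real libraries, so recovery at the real spread was not measured. Of the marker lists checked, only 1 of 6 gamma delta T cell genes was measured, B cell markers were found in 1.25 to 3.46% and macrophage markers in 5.49 to 8.96% of T cells. Shares and sums carry counting error only within a library. Trac and Trbc genes were not used here.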

Additional observations from a re-analysis of the deposited data

Results flagged for a closer look

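The difference between gate-positive and gate-negative cells was not the same in the 2 tissues for 15 pairs of a member and a gate, by the test of the difference itself (vascular minus spleen, log2 scale, edgeR's quasi-likelihood test, adjusted p below 0.05). For the Ifng gate these were Gzma at -1.85, Gzmb at -2.15, Gzmk at -1.37, Nkg7 at -1.47 and Ctsw at -0.77. For the Cxcr6 gate they were Gzma at -2.26, Gzmb at -1.54, Nkg7 at -1.61 and Ctsw at -1.12, and for the Foxp3 gate Gzmb at -0.96, Nkg7 at -1.28 and Ctsw at -1.04. For the Klrb1c gate, Nkg7 (-1.58) and Ctsw (-1.88) had smaller differences in vascular tissue, and Gzma (2.30) a larger one, which was 0.41 without vascular library 1, with 1 vascular library left. NK or innate lymphoid markers were in 34.5 to 45.2% of vascular and 8.74 to 12.8% of spleen Klrb1c+ cells, and their part in these values was not tested. Cxcr6+ cells were 48.6% of vascular and 6.89% of spleen T cells, and Ifng+ cells 29.0% and 8.14%. Cells that missed a gate count as gate-negative, and their part was not tested either. Of all genes, 6.43% were lower and 4.91% higher for the Ifng gate and 5.67% and 2.72% for Cxcr6. For Foxp3 they were 5.32% and 2.91%, and for Klrb1c 2.23% and 1.55%. Under DESeq2, Gzma, Gzmk and Ctsw did not pass for the Ifng gate, Gzma and Gzmb for Cxcr6, and Gzmb for Foxp3. Each of these calls except that of Gzmk was also lost without single libraries.

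The difference between Gzmk-only and Gzmb-only cells was likewise not the same in the 2 tissues for Gzma (1.58), Nkg7 (0.80) and Ctsw (1.17), where 0.606% of genes were higher and 0.314% lower. None of the 3 calls held without spleen library 3 or without vascular library 1, and Gzma had adjusted p = 0.999 under DESeq2.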

How the results depend on the processing

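Over all T cells the calls for the 6 members other than Gzma kept direction and side of the threshold under all alternatives run. Gzma, which was not called, changed sign: 0.0295 without doublet removal, 0.0661 with the replicate block, 0.26 with cells of other lineages left out, 0.0109 with B cell, macrophage and Siglech cells left out (an alternative added after seeing the data), and -0.51 to 0.64 with single libraries left out. For single members by gate, between Gzmk-only and Gzmb-only cells and in shares of cells with a UMI, 1513 alternative values kept their side of the threshold, 101 lost the call, 64 gained one and 71 changed sign; of the last, only Nkg7 between Gzmk-only and Gzmb-only vascular cells had passed the test to begin with.

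With single libraries left out, the tissue differences that changed sign ranged, for Gzma, from -1.07 to 0.17 in Foxp3+ cells, -0.14 to 4.12 in Klrb1c+ cells and -1.07 to 0.86 in cells of no gate; for Gzmk, from -0.066 to 0.31 in Ifng+ cells and -0.0338 to 0.75 in Cxcr6+ cells; for Eomes, from -1.01 to 0.15 in Ifng+ and -1.60 to 0.40 in Cxcr6+ cells; for Gzmb, from -0.33 to 0.16 in Cxcr6+ cells; and in Klrb1c+ cells from -0.52 to 0.53 for Prf1 and -0.74 to 0.85 for Nkg7. In Klrb1c+ cells, leaving out vascular library 1 or 3 leaves 1 vascular library, which is assumed to vary like the spleen libraries. For the Foxp3 gate Gzma ranged from -1.10 to 0.0284 in vascular tissue and its tissue difference from -1.05 to 0.06. For the Ifng gate, Prf1 ranged from -0.55 to 0.10 and Eomes from -0.23 to 0.29 in vascular tissue, and the tissue difference of Prf1 from -0.27 to 0.37. For the Cxcr6 gate, Prf1 in spleen ranged from -0.0569 to 0.31 and the tissue difference of Eomes from -0.84 to 0.89. In Zbtb16+ spleen cells Gzma ranged from -2.42 to 2.35, Gzmb from -0.90 to 0.15 and Eomes from -9.84 to 1.71, the lowest being fitted with no UMI in the gate. In Klrb1c+ spleen cells Gzmb ranged from -0.46 to 0.39 and Eomes from -2.68 to 0.86, and between Gzmk-only and Gzmb-only vascular cells Prf1 ranged from -0.059 to 0.43. Counts of members called ranged from 1 to 4 for the tissue difference in Klrb1c+ cells, 3 to 5 and 2 to 5 for the tissue differences of the Ifng and Cxcr6 gates, 2 to 4 between Gzmk-only and Gzmb-only spleen cells and 0 to 3 for the tissue difference of that comparison.

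Requiring a Cd4 UMI gave sign changes for Gzmk between tissues (-0.19 in Ifng+ and -0.26 in Cxcr6+ cells), Nkg7 between tissues in Klrb1c+ cells (-0.32), Gzma in the Foxp3 gate in spleen (0.12), Eomes in the Ifng gate (-0.22 in vascular tissue, -0.18 for the tissue difference), Prf1 in the Cxcr6 gate in spleen (-0.37), Gzma in Zbtb16+ cells (-1.93), and in the Klrb1c gate Gzmb in spleen (-0.81), in vascular tissue (-1.24) and for the tissue difference (-0.43) and Prf1 in spleen (-0.16). It moved the count of members called to 1 from 3 (tissues, Foxp3+), 0 from 1 (tissues, Klrb1c+), 3 from 5 (Ifng gate, vascular), 2 from 4 (Zbtb16 gate), 1 from 3 (Klrb1c gate, vascular) and 0 from 3 (tissue difference between Gzmk-only and Gzmb-only cells). Leaving out cells with Cd8a, Cd8b1 or Ncr1 gave -0.0558 for Gzmk between tissues in Ifng+ cells, -0.21 for Nkg7 in Klrb1c+ cells, 0.10 for Gzma in the Foxp3 gate in spleen, -0.18 for Eomes in the Ifng gate in vascular tissue, -0.13 for the tissue difference of Prf1 there, 0.12 for that of Eomes in the Cxcr6 gate, -2.57 and -10.04 for Gzma and Eomes in Zbtb16+ spleen cells, -2.14 for Eomes in Klrb1c+ spleen cells and -0.35 for the tissue difference of Prf1 in the Klrb1c gate. At least 2 UMIs of the gate gene gave -0.0258 and -0.0671 for Gzmk between tissues in Ifng+ and Cxcr6+ cells, 0.28 for Gzma in the Foxp3 gate in spleen, -11.79 for Gzma and 0.69 for Gzmb in Zbtb16+ cells, -0.20 for Gzmb and -2.36 for Eomes in Klrb1c+ spleen cells, and 1 member called in place of 3 between tissues in Ifng+ cells.

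DESeq2 gave 0.0635 for Prf1 between tissues in Klrb1c+ cells, -0.0356 for the tissue difference of Prf1 in the Ifng gate, -0.69 and -2.35 for Gzma and Eomes in Zbtb16+ cells and -0.70 for Eomes in Klrb1c+ spleen cells. It called 3 members in place of 5 in the Ifng gate in vascular tissue, 2 in place of 5 for the tissue difference of that gate and 2 in place of 4 for that of the Cxcr6 gate. Without doublet removal, Gzma in the Foxp3 gate in spleen was 0.58 and Gzmb in Klrb1c+ spleen cells was -0.0015. Without Foxp3+ cells, Nkg7 between Gzmk-only and Gzmb-only vascular cells was -0.0864, the tissue difference of Eomes was -0.023, and 4 members in place of 2 were called in spleen and 2 in place of 4 in vascular tissue. With no filter on low counts, 5 members in place of 3 were called between tissues in Foxp3+ cells, 4 in place of 1 in Klrb1c+ cells and 4 in place of 2 between Gzmk-only and Gzmb-only spleen cells.

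The replicate block, which pairs spleen and vascular libraries of the same number, gave 0.39 for Prf1 in Klrb1c+ cells and -0.0581 for Gzma in cells of no gate, and called 5 members in place of 3 in Foxp3+ cells. Same-numbered libraries deviated together with correlations of 0.128, 0.057 and 0.177, each the highest for its vascular library. Other pairs ranged from -0.172 to 0.079, the highest being spleen library 2 with vascular library 3. The labels do not say that equal numbers mark pairs, so the fit without pairs was kept as the main one. The cause of these changes was not tested. The tissue difference in Zbtb16+ cells could not be fitted in any setting, nor that in Klrb1c+ cells with at least 2 UMIs of the gate gene, for lack of vascular libraries with 20 cells. At 1000 UMIs per cell, Gzma, Eomes and Prf1 were each seen in under 2% of T cells in every library, which limits their shares.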
